A study of Mus musculus with 37 samples.

Results

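Slc46a3 and Ttc39c are a pair of liver genes that were chosen from these data because their probes were lower in sires given the highest dose of HFPO-DA and were not lower in dams. HFPO-DA is a short-chain perfluoroalkyl ether acid, here its ammonium salt. The members were found by the symbol in front of each probe number: Slc46a3 had 1 probe (number 62300) and Ttc39c had 1 probe (number 62481), so the pair makes up 2 of the 21450 gene symbols and 2 of the 30146 probes on the table. Both probes were among the 18570 kept after low counts were removed. All 8 groups of sex and dose entered the choice, so the levels of both genes and their differences between groups are given as a description, with no test.

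The mice were Crl:CD1(ICR) animals of the parental generation of a reproduction and developmental toxicity study, dosed once a day by oral gavage with deionized water alone, the vehicle, or with HFPO-DA in it at 5, 0.5 and 0.1 mg/kg body weight. Males were about 6 weeks old at the first dose and received 84 to 85 doses, beginning 70 days before mating. Females were about 11 weeks old and received 53 to 65 doses, from 14 days before mating through pregnancy and up to lactation day 20 or 21, so their livers were those of nursing dams. Livers were fixed in formalin and embedded in paraffin, and sections of 37 mice gave TempO-Seq counts, in which a pair of detector oligos is ligated on its target RNA and sequenced. In order of dose the groups held 5, 5, 5 and 4 males and 5, 5, 4 and 4 females. Sex cannot be told apart from age, number of doses or lactation in this design.

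Slc46a3 encodes a lysosomal membrane transporter of the SLC46 family, whose best known member, Slc46a1, carries folate in a proton-coupled manner and has also been called a heme carrier. SLC46A3 lets the cleaved products of maytansine-type antibody-drug conjugates leave the lysosome, and it has been linked to the transport of bacterial cell wall fragments and to copper handling in hepatocytes. Ttc39c encodes a protein with tetratricopeptide repeats, helical modules that commonly bind other proteins, and its role in hepatocytes is little known; its relative Ttc39b has been linked to turnover of the liver X receptor. Many genes of mouse liver differ between the sexes because of the pattern of growth hormone secretion, and HFPO-DA is known as an activator of PPARα, the nuclear receptor of fatty acid catabolism.

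In GENCODE M21 (GRCm38) Slc46a3 (ENSMUSG00000029650.10) lies on the minus strand at chr5:147878437-147894815 and spans 16379 bp. The 250 bases before its start in the RefSeq table (GRCm38.p6, minus strand, chr5:147894816-147895065) are printed, with matches to 3 short motifs in capitals. Of the 2 members, Slc46a3 was the 1 matched there. Neither the deposited counts nor this window measures binding.

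Slc46a3 promoter: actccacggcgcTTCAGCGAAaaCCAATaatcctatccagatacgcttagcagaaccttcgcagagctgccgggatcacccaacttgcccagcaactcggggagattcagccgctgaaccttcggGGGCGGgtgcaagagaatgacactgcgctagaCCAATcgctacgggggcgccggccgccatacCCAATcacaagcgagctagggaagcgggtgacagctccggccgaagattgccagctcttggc

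The motifs were searched on both strands, and counted from the start the capitals mark TTCNNNGAA, the shape of a STAT site, at -238, the CCAAT box at -227, -93 and -62, and the GC box GGGCGG at -125. Windows of the same length with at least 1 match made up 7.04% of the 32536 distinct promoters for TTCNNNGAA, 33.8% for CCAAT and 32.97% for GGGCGG. No match was found to the direct repeat of the nuclear receptor half-site AGGTCA with 1 base between, the repeat bound by PPARα and its partner, which 0.0338% of promoters hold. GCGTG, the core of the aryl hydrocarbon receptor element (28.3% of promoters), and TATAAA (12.3%) were not found either. The window was 60% G and C, and 72.1% of promoters had a lower share. These matches describe letters only, and a motif that was not found says nothing of its factor.

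Slc46a3 was nearly absent from the males given 5 mg/kg and present in every other mouse. Levels are given as CPM, the count of a probe scaled to a common size of the normalized library. In vehicle males the 5 mice had 15.97, 17.3, 8.69, 10.6 and 9.80 CPM (12.5 ± 3.87, SD, n = 5). The 4 mice of the top dose, 5 mg/kg, had 0, 1.21, 0 and 0.155 CPM (0.342 ± 0.586, n = 4), which came from 0, 11, 0 and 1 counts. The groups did not overlap, and the highest of these 4 males lay below the lowest of the other 33 mice, which had 7.76 CPM. At the mean of vehicle males the same 4 libraries would have held 52.9, 113, 33.3 and 80.7 counts.

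Shallow sequencing limits how low those values can be read. The 4 males at 5 mg/kg had 4147445, 9098192, 2101495 and 6088425 counts in total, and 3 counts in their libraries correspond to 0.707, 0.331, 1.13 and 0.464 CPM. The 2 mice with no Slc46a3 count were the shallowest of the group, and the mouse with 11 of the group's 12 counts was the deepest. Summed over mice, Slc46a3 had 0.535 CPM in males at 5 mg/kg (95% Poisson interval 0.276 to 0.934, counting error only) against 12.6 CPM in vehicle males (11.5 to 13.8), a ratio of 23.6 (13.4 to 46.0). Without the mouse with 11 counts the sum was 1 count, 0.0747 CPM (0.00189 to 0.416), and the ratio was 169 (30.1 to 6676).

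At the lower doses Slc46a3 did not lie below vehicle in males. Males at 0.1 mg/kg had 26.9, 30.9, 10.5, 10.0 and 7.76 CPM (17.2 ± 10.8), the first 2 above every vehicle male and the other 3 at 7.76 to 10.5 CPM. Males at 0.5 mg/kg had 17.9, 21.9, 17.02, 14.1 and 26.3 CPM (19.4 ± 4.74), overlapping with vehicle. The step down lay between 0.5 and 5 mg/kg, where the 2 groups did not overlap.

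**Figure D1:**
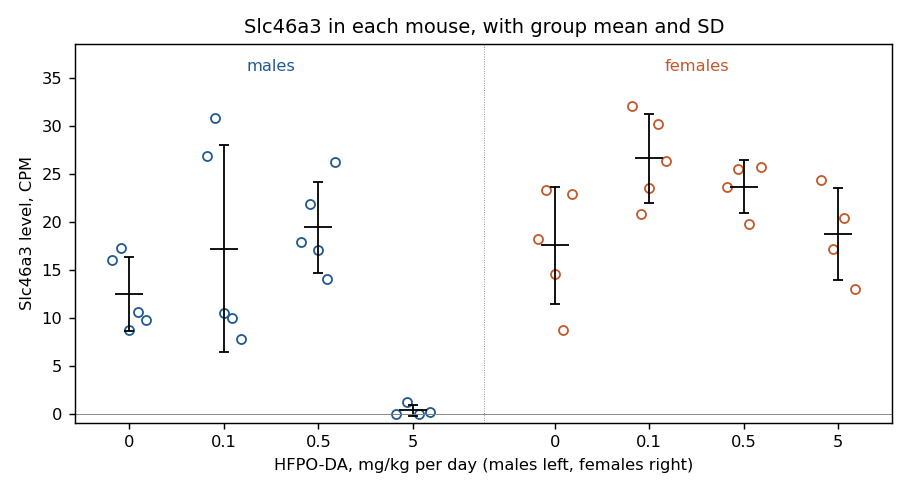
Slc46a3 level in CPM (y axis, linear) in each of the 37 mice (open circles) by HFPO-DA dose in mg/kg per day, males left and females right; black bars give the group mean and SD. The 4 males at 5 mg/kg lie between 0 and 1.21 CPM, and no other mouse is below 7.76 CPM.

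In females no dose group of Slc46a3 had a mean below vehicle. Vehicle females had 18.2, 23.3, 14.6, 8.75 and 22.9 CPM (17.6 ± 6.10), and females at 5 mg/kg had 24.4, 17.1, 20.4 and 13.02 CPM (18.7 ± 4.83). These groups overlapped. Females at 0.1 mg/kg had 20.8 to 32.1 CPM (26.6 ± 4.64, n = 5) and females at 0.5 mg/kg had 19.7 to 25.7 CPM (23.7 ± 2.78, n = 4). From high to low the order of the means was females at 0.1 and 0.5, males at 0.5, females at 5, vehicle females, males at 0.1, vehicle males and males at 5 mg/kg. Every pair of neighbours in that order overlapped except the last, vehicle males and males at 5 mg/kg.

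Ttc39c (ENSMUSG00000024424.15) lies on the plus strand of chromosome 18, from 12599896 to 12738863 in GENCODE M21, and spans 138968 bp. It was the more abundant of the pair as counted per probe, and probe counts are not scaled to transcript length. In vehicle males the mice had 585, 408, 539, 370 and 352 CPM (451 ± 105, n = 5), a level above that of 98.2% of probes. In vehicle females they had 109, 66.8, 63.7, 97.2 and 123 CPM (91.9 ± 26.02, n = 5), above 91.5% of probes. The sexes did not overlap at vehicle, and the ratio of the means was 4.91.

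At 5 mg/kg Ttc39c in males lay in the range of the females. The 4 males had 82.1, 115, 48.0 and 103 CPM (87.0 ± 29.4), none near the lowest vehicle male at 352 CPM. The 18 females of all doses ranged from 62.7 to 197 CPM with a median of 111, so that 3 of the 4 males fell inside that range and the male with 48.0 CPM, the shallowest library, lay below it. Every one of the 15 males at lower doses lay above every female, the lowest of those males having 209 CPM.

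**Figure D2:**
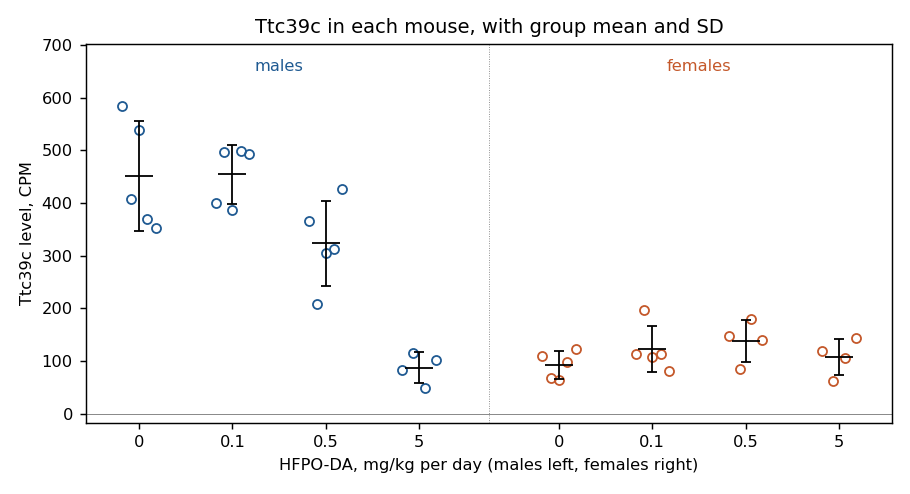
Ttc39c level in CPM (y axis, linear) in each of the 37 mice (open circles) by HFPO-DA dose in mg/kg per day, males left and females right; black bars give the group mean and SD. Males at 5 mg/kg (48.0 to 115 CPM) overlap with the females, 1 of them lying below the lowest female, while the other males lie between 209 and 585 CPM.

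Below the top dose Ttc39c lay nearer to vehicle. Males at 0.1 mg/kg had 400, 497, 387, 498 and 493 CPM (455 ± 56.2), level with vehicle. Males at 0.5 mg/kg had 366, 209, 305, 312 and 426 CPM (324 ± 80.6), with 3 of the 5 below every vehicle male and the groups overlapping. The mouse with 209 CPM had the shallowest library of its group, 2608954 counts. In females the group means were 122 ± 43.9 CPM at 0.1 mg/kg, 138 ± 39.8 at 0.5 mg/kg and 108 ± 34.2 at 5 mg/kg, each overlapping with vehicle. In the order of the 8 group means, the sole pair of neighbours that did not overlap was males at 0.5 mg/kg and females at 0.5 mg/kg, which differed by 186 CPM.

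On the log2 scale the fitted difference of males at 5 mg/kg from vehicle was -4.68 (approximate standard error 0.55) for Slc46a3 and -2.37 (0.27) for Ttc39c. In females at 5 mg/kg the same difference was 0.09 (0.38) for Slc46a3 and 0.23 (0.25) for Ttc39c. The male difference minus the female difference was -4.77 (0.66) for Slc46a3 and -2.60 (0.37) for Ttc39c. At 0.5 mg/kg the male difference was 0.63 (0.37) for Slc46a3 and -0.48 (0.24) for Ttc39c, and at 0.1 mg/kg it was 0.47 (0.37) and 0.01 (0.24). In females these values were 0.43 (0.38) and 0.58 (0.25) at 0.5 mg/kg, and 0.60 (0.36) and 0.41 (0.24) at 0.1 mg/kg. Vehicle males minus vehicle females gave -0.49 (0.37) for Slc46a3 and 2.29 (0.25) for Ttc39c. All doses of a sex share their vehicle mice, and the fitted value of Slc46a3 at 5 mg/kg depended on the small count added to each library, going from -4.68 to -3.70 when that count was raised to 5, against -2.37 to -2.36 for Ttc39c. Each error in brackets is the absolute difference over the square root of its quasi-likelihood F statistic, and no test is read from it. These errors do not cover the low counts of Slc46a3, whose difference in males at 5 mg/kg was -7.19 without replicate 2 of that group.

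**Figure D3:**
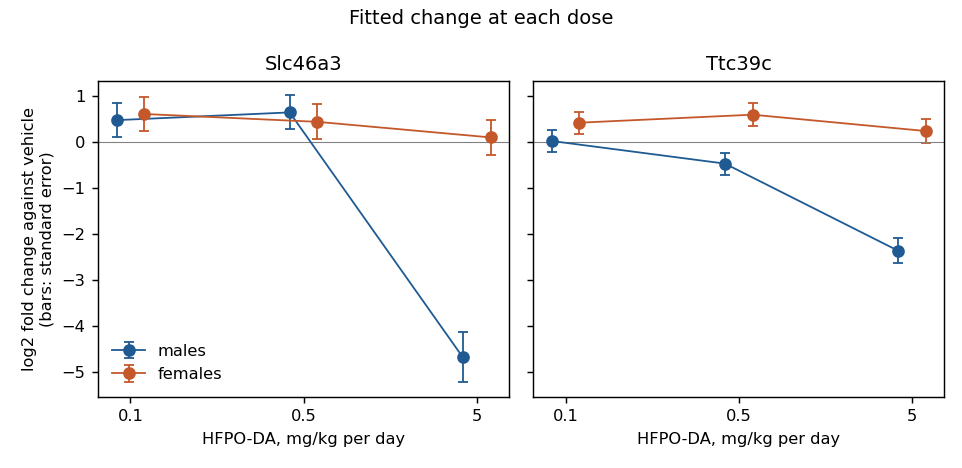
Fitted log2 fold change against vehicle of the same sex (y axis, bars are approximate standard errors) at each HFPO-DA dose in mg/kg per day, for Slc46a3 (left) and Ttc39c (right). Only the males at 5 mg/kg lie far below 0, at -4.68 for Slc46a3 and -2.37 for Ttc39c.

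Ranked by fold change alone, with probes of few counts and probes not called included, many lay below the pair in males at the top dose. Of the 18570 probes, 1161 had a lower log2 fold change than Slc46a3 and 1941 a lower one than Ttc39c in males at 5 mg/kg. By edgeR at an adjusted p under 0.10, 2359 probes (12.7%) were called in that comparison and 1577 (8.49%) were lowered; the choice of the pair used it, so nothing is read from that share. The top dose in females gave 839 called probes (4.52%), but with each sex fitted apart females had more calls than males, 2093 against 1120 by edgeR and 2460 against 1567 by DESeq2. With all mice in 1 edgeR fit 117 (0.63%) were called for a difference between the sexes in the response to 5 mg/kg. Of the 1577 probes lowered in males, 76 (71 genes) also had a called difference between the sexes in that direction, and 51 of these 76 had a female log2 fold change at or above 0. In that class 18 of the 76 were also called as higher in vehicle males than in vehicle females, and 7 were called as lowered in females. Over all 18570 probes, 230 were called as higher in vehicle males. The pair was not taken out of these counts, and the comparisons behind them share the vehicle males. The shares of the 76 are thus partly built in, and nothing is read from them.

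Calls were fewer at the lower doses: at 0.5 mg/kg 116 probes (0.625%) passed in males and 21 (0.113%) in females, and 0 (0%) in both sexes at 0.1 mg/kg by edgeR. Without adjustment, p was under 0.05 at 0.1 mg/kg for 1325 probes of the males and 442 of the females, and DESeq2 called 10 and 47 with each sex fitted apart or 19 and 3 with all mice in 1 fit. Vehicle males and females differed on 483 probes (2.6%), 230 of them higher in males. Of all probes, called or not, 447 had a larger fitted male excess than Ttc39c. The 37 libraries held 2101495 to 13878254 counts, and those of males reached at most 10548222 while those of females began at 7952605. Replicates were separate mice, and the Y-linked gene Ddx3y had 31 to 623 counts in each male and 0 to 2 in each female.

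None of the relatives of the pair was called, each read on its probe with the most counts. Slc46a1, the folate transporter, had 9.33 CPM in vehicle males and 10.4 CPM in males at 5 mg/kg (log2 fold change 0.14, adjusted p = 0.911). Slc46a2 had no count in any mouse, and Ttc39d had 28 counts in all and was not tested. Ttc39b had 13.4 CPM in vehicle males and 11.8 CPM at 5 mg/kg (-0.19, adjusted p = 0.892), and Ttc39a had 6.29 and 10.7 CPM (0.77, adjusted p = 0.679). Of the 3 relatives tested, 0 were called in either sex at 5 mg/kg by edgeR with all mice in 1 fit and 0 had an unadjusted p under 0.05, while edgeR and DESeq2 each called 1 as lowered in females when the sexes were fitted apart.

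Genes next to the pair were also read, taking the 3 nearest protein-coding genes on either side. Beside Slc46a3, its closest neighbour Pomp, a proteasome assembly factor 1.981 kb away, had 37.8 CPM in vehicle males and 43.8 CPM at 5 mg/kg (0.22, adjusted p = 0.752). Flt1, a VEGF receptor, had 27.5 and 28.5 CPM (0.04, adjusted p = 0.954). Pan3, a deadenylase subunit 329.935 kb away, fell from 48.3 to 29.5 CPM on its probe with the most counts (-0.72, adjusted p = 0.039), and its value in females was -0.51 (adjusted p = 0.293). Pan3 had 3 kept probes. Probe 70455 had 13 to 108 raw counts in vehicle males and 0 to 49 in males at 5 mg/kg, with 3 of 4 mice at 0. In females it had 55 to 86 counts at vehicle and 26 to 71 at 5 mg/kg. Probe 70246 had 0 to 2 and 0 to 13 counts in those male groups. The remaining neighbours of Slc46a3, Mtus2, Slc7a1 and Ubl3, had means below 4 CPM in both of those male groups and none was called.

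Beside Ttc39c, Lama3, a laminin subunit 16.883 kb away, was lowered in males at 5 mg/kg on 1 of its 2 probes. That probe had 31 to 101 counts in vehicle males and 0 to 6 counts in males at 5 mg/kg, with 3 of 4 mice at 0 (7.52 against 0.165 CPM; log2 fold change -5.05, adjusted p = 0.00678). Vehicle females had 0 to 15 counts on it, and it was called as higher in vehicle males (3.36, adjusted p = 0.0804), while its value in females at 5 mg/kg was -2.50 (adjusted p = 0.351). Its sex difference in response was -2.55 (adjusted p = 0.676) and did not pass. The other Lama3 probe gave -1.90 in males (adjusted p = 0.343). Osbpl1a, an oxysterol-binding protein on the other side, had 184 and 149.6 CPM on 1 of its 3 kept probes (-0.29, adjusted p = 0.271). Cabyr, Npc1, Ankrd29 and Impact were not called in males at 5 mg/kg.

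With all mice in 1 edgeR fit, no other lysosomal transporter of the list read beside Slc46a3 was called at 5 mg/kg. Of 31 further genes for lysosomal membrane transporters and channels that were tested, 0 were raised and 0 lowered at 5 mg/kg in either sex, against 4.65% of all genes raised and 8.86% lowered in males and 2.42% and 2.51% in females. Their median log2 fold change was -0.10 in males and -0.07 in females, beside -0.11 and -0.02 over all genes. Unadjusted, 1 of the 31 had p under 0.05 in males and 3 in females. With a gene called on any of its probes, 1 was raised and 2 were lowered in males, and in females DESeq2 fitted to that sex alone called 7 and edgeR fitted to it alone called 4. Among 39 lysosomal membrane proteins and hydrolases, males had 2 raised and 3 lowered and females had 0 raised and 3 lowered. These calls depended on the fit: with each sex fitted apart edgeR called 2 in males and 6 in females and DESeq2 called 10 in females, and on any probe 8 were called in males and 6 in females. Naglu, a heparan sulfate degrading enzyme, fell from 24.2 to 10.8 CPM in males (-1.18, adjusted p = 0.00731) and from 25.3 to 12.4 CPM in females (-1.03, adjusted p = 0.0307).

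Heme and copper genes were read because of what is known of the SLC46 family. Of 21 heme genes, males at 5 mg/kg had 1 raised and 6 lowered, and females had 2 raised and 1 lowered, against 4.65% and 8.86% of all genes in males and 2.42% and 2.51% in females, with list medians of 0.13 and 0.16. Alas1, the rate-limiting enzyme of heme synthesis, went in opposite directions: it fell from 44.0 to 22.3 CPM in males (-0.98, adjusted p = 0.0752) and rose from 28.1 to 68.7 CPM in females (1.29, adjusted p = 0.0177). The male minus the female change of Alas1 was -2.27 (adjusted p = 0.0165). Hmox2, a heme oxygenase, fell from 234 to 122 CPM in males (-0.94, adjusted p = 0.00106), and the heme and urate exporter gene Abcg2 rose from 5.20 to 22.6 CPM (2.11, adjusted p = 0.00385). Of 16 copper genes, 0 were raised and 2 lowered in males (4.65% and 8.86% of all genes), and 0 were called in females with all mice in 1 edgeR fit, where 2 had an unadjusted p under 0.05; fitted to females alone, edgeR called 2 and DESeq2 called 3. The pair lowered in males was Slc31a1, the copper importer, which fell from 69.1 to 28.01 CPM (-1.28, adjusted p = 0.00135), and Cp, the copper-carrying plasma protein ceruloplasmin, which fell from 3875 to 1939 CPM (-0.999, adjusted p = 0.00333).

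Ttc39c, with its male excess at vehicle, was set beside genes known as male-biased or female-biased in mouse liver. Of 28 male-biased genes tested, 20 were called as higher in vehicle males and 0 as lower, against 1.34% and 1.51% of all genes. In males given 5 mg/kg 16 of the 28 were lowered and 2 raised, with a median log2 fold change of -1.31, where 8.86% of all genes were lowered and 4.65% raised, with a median of -0.11. In females 4 were lowered and 5 raised, with a median of 0.19, where 2.51% of all genes were lowered and 2.42% raised, with a median of -0.02. At 0.5 mg/kg edgeR called 0 of the 28 in males, 5 having an unadjusted p under 0.05, where 0.423% of all genes were raised and 0.277% lowered. C8a, a complement component with a called difference between the sexes, had 911 CPM in vehicle males, 271 in males at 5 mg/kg (-1.75, adjusted p = 5.24e-05), and 176 and 159 CPM in females. Gstp1, a glutathione transferase, fell from 4273 to 1767 CPM in males (-1.27, adjusted p = 0.000373) and rose from 386 to 762 CPM in females (0.98, adjusted p = 0.00866).

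Not every male-biased gene followed Ttc39c. Cyp4a12a, a fatty acid hydroxylase, had 446 CPM in vehicle males and 479 CPM in males at 5 mg/kg, and it rose from 0.973 to 197 CPM in females. Mup3, a major urinary protein, fell in both sexes, from 6458 to 1317 CPM in males and from 1289 to 231 CPM in females. For all genes a difference between the sexes was called in 0.439% with the male change below the female change and in 0.185% with it above; 4 of the 28 male-biased genes had the former and 0 the latter.

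Of 29 female-biased genes tested, 23 were called as lower in vehicle males; at 5 mg/kg males had 9 raised and 2 lowered (median 1.22), and females had 2 raised and 11 lowered (median -0.97), against 4.65% and 8.86% of all genes in males and 2.42% and 2.51% in females. With each sex fitted apart, edgeR called 7 in males and 20 in females (5 raised, 15 lowered), and DESeq2 called 6 and 20. The list shares Cyp4a10, Cyp4a14 and Acot3 with the PPARα targets, and these 3 were raised in males. Of 28 PPARα targets, 24 were raised and 0 lowered in males of the top dose and 22 and 0 in females, with medians of 2.92 and 2.22. At 0.5 mg/kg 17 of these targets were raised in males and 9 in females, where 0.423% and 0.123% of all genes were raised. At that dose the mean of Slc46a3 lay above vehicle in both sexes. The mean of Ttc39c lay below vehicle in males (324 against 451 CPM) and above it in females (138 against 91.9 CPM). A link between PPARα and the levels of the pair was not tested. Without the shallowest 2 libraries, 15 male-biased, 9 female-biased and 25 PPARα target genes were called in males at 5 mg/kg.

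**Figure D4:**
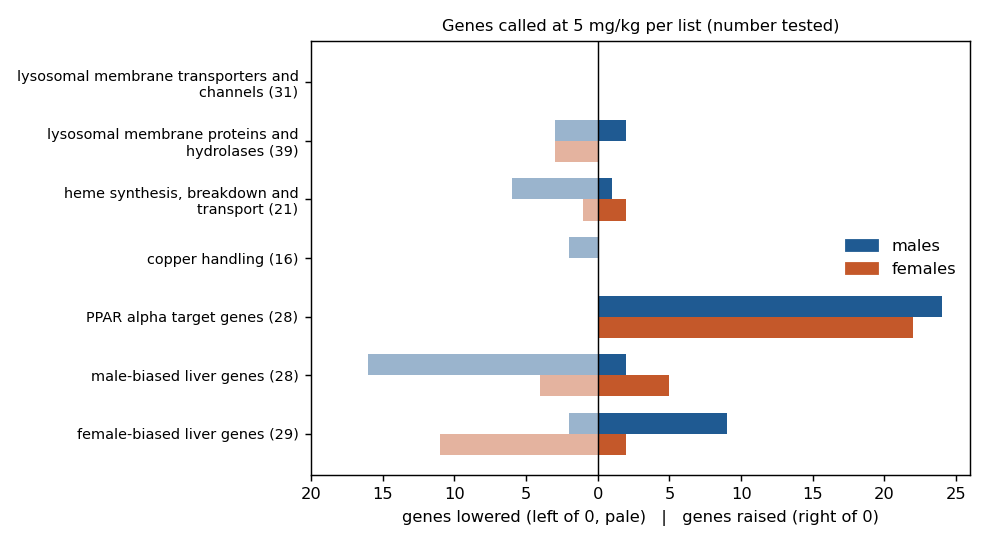
Number of genes per list (number tested in brackets) called by edgeR at 5 mg/kg against vehicle, lowered genes drawn left of 0 in pale bars and raised genes right of 0, males in blue and females in orange. PPARα targets were raised in both sexes (24 and 22 of 28), male-biased genes were mostly lowered in males (16 of 28) and the 31 lysosomal transporters had no call.

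The tissue carried its labelled markers, with a lower hepatocyte signal in males at the top dose. The summed level of 12 hepatocyte markers, all of them kept, was 35868 to 50993 CPM in vehicle males and 20866 to 26547 CPM in males at 5 mg/kg, with medians at a ratio of 0.649 and no overlap. In females it was 29893 to 41893 CPM at vehicle and 29822 to 34599 CPM at 5 mg/kg, a ratio of 0.805. Of the 12 genes, 7 were lowered in males and 5 in females, where 8.86% and 2.51% of all genes were lowered. In these bulk sections fewer cells of a type and less RNA per cell cannot be told apart, and the part of this in the lower Slc46a3 and Ttc39c levels was not tested; on the same CPM scale, summed over mice, vehicle males exceeded them by ratios of 23.6 for Slc46a3 and 4.67 for Ttc39c.

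Markers of the other liver cells overlapped between vehicle males and males at 5 mg/kg. The summed level of 12 stellate cell markers was 297 to 634 and 439 to 711 CPM, that of 12 Kupffer cell and macrophage markers 107 to 489 and 153 to 422 CPM, and that of 10 sinusoidal endothelial markers 487 to 721 and 465 to 557 CPM. Cholangiocyte markers, of which 4 of 8 were kept, summed to 2.79 to 77.0 and 5.10 to 33.8 CPM, and 10 of 12 lymphocyte and neutrophil markers to 15.4 to 65.1 and 20.4 to 24.002 CPM. The ratio of medians to vehicle at 5 mg/kg was 1.39 in males and 1.37 in females for stellate markers. For Kupffer, endothelial, cholangiocyte, and lymphocyte and neutrophil markers it was 1.07, 0.872, 1.34 and 1.24 in males. In females these ratios were 1.23, 0.823, 1.17 and 0.757. A sum follows its most abundant genes, and gene by gene the lists read otherwise in places. In males at 5 mg/kg the median log2 fold change was -0.88 for cholangiocyte and -0.86 for lymphocyte and neutrophil markers, against their ratios above 1. It was 0.23 for stellate, 0.01 for Kupffer and -0.22 for endothelial markers. Of these lists, 2 of 10 endothelial genes and 1 of 10 lymphocyte or neutrophil genes were lowered in males at 5 mg/kg, beside 8.86% of all genes.

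The genes whose levels went most closely with each member were not the same for the pair. Over all 37 mice the highest Pearson correlations of log2 CPM with Slc46a3 were those of Akr1d1, the bile acid and steroid 5β-reductase (0.867), Wrn, a DNA helicase (0.860), Pcp4l1 (0.858), Arl5b (0.851) and Slc1a2, a glutamate transporter (0.851). With Ttc39c they were those of Obp2a (0.860), Apoa1, the main HDL protein (0.854), Egfr, the EGF receptor (0.826), C8b, a complement component (0.824) and the organic anion transporter Slc22a28 (0.823). These values describe likeness across mice that share the group differences. Akr1d1 had 85.8 CPM in vehicle males and 19.7 CPM in males at 5 mg/kg, beside 144 and 94.4 CPM in females. Obp2a had 11.6 and 0.0938 CPM in males and 0.227 and 0.485 CPM in females, and was thus higher in vehicle males as Ttc39c was.

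Over the males alone the members were closer to each other. Their correlation was 0.257 over the 37 mice, where Ttc39c had rank 6567 among all probes by closeness to Slc46a3. It was 0.888 over the 19 males, where Ttc39c had rank 16 for Slc46a3 and Slc46a3 had rank 47 for Ttc39c. Over males the genes closest to Slc46a3 were C8b (0.919), Slc22a7, Cyp1a2, Akr1d1 and Cyp2d22, and those closest to Ttc39c were Cyp2c70 (0.976), Sult1a1 (0.972), Prodh, Gpld1 and C8b. The 4 males at 5 mg/kg, low in both genes, are among these mice. Both genes were chosen for being low in them, so a high correlation over the males was built in by the choice. Nothing is read from it or from its ranks.

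Within groups no relation between the members passed the test. After each group mean was removed, the correlation of their log2 CPM was 0.148 over 37 mice (permutation within groups, two-sided p = 0.484, adjusted p = 0.545 over 9 relations; Spearman 0.0648, permutation p = 0.718). Without the 2 mice farthest from the median it was 0.0107. It was 0.368 in the 19 males (permutation p = 0.259, adjusted p = 0.447; Spearman 0.312, p = 0.218), 0.177 without the 2 farthest, and -0.193 in the 18 females (permutation p = 0.481, adjusted p = 0.545; Spearman -0.139, p = 0.611), -0.0526 without the 2 farthest. The value over all mice turned to -0.0747 without the males at 5 mg/kg. In the 15 males below 5 mg/kg it was 0.0433, also a setting chosen after seeing the data.

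**Figure D5:**
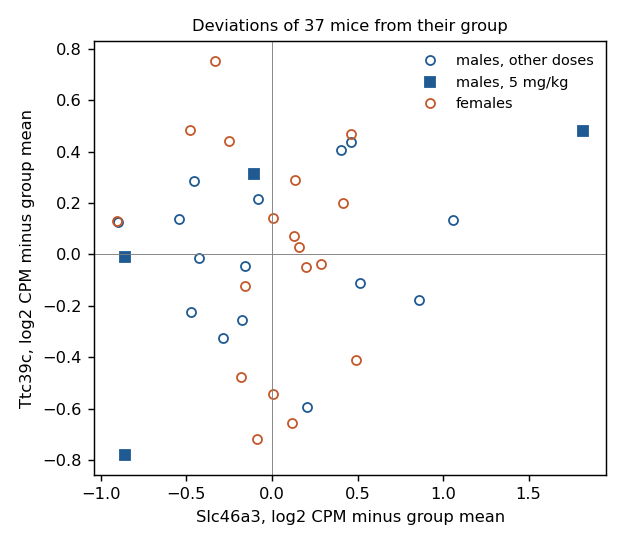
Deviation of each of the 37 mice from its group mean in log2 CPM, Slc46a3 on the x axis and Ttc39c on the y axis; filled squares are males at 5 mg/kg, open blue circles other males and open orange circles females. The Pearson correlation is 0.148, and the mouse farthest to the right is the male at 5 mg/kg with 11 of the group's 12 Slc46a3 counts.

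Library depth was also set beside both genes. The correlation of the deviations of Ttc39c with those of log2 total count was 0.408 over 37 mice (permutation p = 0.0245, adjusted p = 0.120; Spearman 0.299, p = 0.0994) and 0.313 without the 2 farthest. In males it was 0.623 (permutation p = 0.0267, adjusted p = 0.120; Spearman 0.430, p = 0.108), and it was 0.215 without the males with 48.0 and 209 CPM, the shallowest 2 libraries. For Slc46a3 it was 0.296 (permutation p = 0.298, adjusted p = 0.447; Spearman 0.0993, p = 0.623), and 0.118 without the 2 farthest. No relation passed after adjustment. With all libraries thinned to the smallest total, the log2 difference of males at 5 mg/kg was -2.30 for Ttc39c and -6.07 for Slc46a3, and without the shallowest 2 libraries it was -2.21 for Ttc39c and -4.49 for Slc46a3.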

How the data were processed

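The authors scraped liver sections of 40 mice, ran TempO-Seq, left out 3 mice whose libraries had too few reads or probes, and deposited raw counts per probe. The submitters' processing notes name bcl2fastq 2.17.1.14 and Bowtie. The genome build is not given in the sources used here. The fit of the counts used edgeR 4.0.16 (R 4.3.3) with filterByExpr over the 8 groups, TMM normalization, 1 mean per group over all 37 mice and quasi-likelihood tests, with Benjamini-Hochberg adjustment over 18570 probes and a threshold of 0.10. CPM used TMM library sizes, and log2 CPM a prior count of 2. A gene in a list was read on its probe with the most counts. The fit was tested on simulated data. DESeq2 1.42.0, other filters, thinning and leaving out mice were alternatives. Correlations used 100000 permutations (Python 3.11.15, scipy 1.17.1).

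The named genes were the pair, their families, the 3 nearest protein-coding genes on either side, the 5 most alike genes per member, and up to 4 genes per list. The members and lists were chosen with earlier results of these data known. Probe sequences and the promoter of Ttc39c are not used here. A gene of the lists is not reported here.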

Additional observations from a re-analysis of the deposited data

Results flagged for a closer look

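In 40 groups of 4 or 5 mice over the 5 genes of both families that were kept, 4 groups held a mouse far from the others. Chance alone would flag about 1 group in 20 if the values were normally spread. That was not checked, and groups with values near 0 CPM need not be so spread. The flagged group of Slc46a3 is also the one that served to choose it. Slc46a3 was at 1.21 CPM in replicate 2 of the males at 5 mg/kg, with the other 3 at 0 to 0.155 CPM; this mouse had the deepest library of its group. Ttc39c was at 197 CPM in replicate 2 of the females at 0.1 mg/kg, with the others at 80.0 to 114 CPM. Ttc39a was at 0 CPM in replicate 1 of the males at 0.1 mg/kg (others 5.58 to 7.57) and at 12.4 CPM in replicate 4 of the females at 5 mg/kg (others 7.02 to 7.66).

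Among the genes of the role lists read beside the pair, cell markers aside, those that follow differed between males and females in their log2 fold change at 5 mg/kg, by edgeR's interaction test. The male change was below the female change for Alas1 (-2.27), Cyp4a12a (-7.55, adjusted p = 5.51e-07), C8a (-1.60), Gstp1 (-2.26) and Gstp2 (-2.59). It was above the female change for the female-biased genes Cyp2b9 (4.89), Cyp2b13 (7.73), Cyp3a41a (1.71), Cyp3a41b (1.28), Cyp3a16 (4.66), Cyp2c69 (6.55), A1bg (4.16), Acot3 (3.87) and Hao2 (4.48). Among the cell markers, 2 of 12 hepatocyte genes and 1 of 10 lymphocyte or neutrophil genes also had a called difference, with the male change below the female change.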

How the results depend on the processing

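Recomputed log2 fold changes stayed within the spread between mice in 147 cases for Ttc39c and 143 for Slc46a3. The other 4 were Slc46a3 in males at 5 mg/kg, -6.07 with counts thinned to the smallest total and -7.19 to -4.40 with 1 mouse left out, and its difference between the sexes, -6.03 thinned and -7.26 to -4.47; the lowest values came without replicate 2 of the males at 5 mg/kg. Ttc39c in males at 5 mg/kg ranged from -2.56 to -2.17 with 1 mouse left out. The within-group correlation turned to -0.0758 thinned, -0.193 in females and -0.0747 without the males at 5 mg/kg, the last chosen after seeing the data. Counts of called probes depended more on the fit. At an adjusted p under 0.05 they were 1530 for males at 5 mg/kg, 70 for males at 0.5 mg/kg and 70 for the difference between the sexes. With each sex fitted apart 5 and 0.5 mg/kg gave 1120 and 53 for males, then 2093 and 70 for females. DESeq2 called 1567 (5 mg/kg) and 10 (0.1 mg/kg) in males, and for females 2460, 301 and 47 from the high to the low dose, 250 for the difference between the sexes and 813 between vehicle groups. DESeq2 with all mice in 1 fit, added after seeing the data, called 319 (0.5 mg/kg) and 19 (0.1 mg/kg) for males, then 1269, 76 and 3 for females. With no filter on low counts they were 14 in males at 0.1 mg/kg, and among the females 34 (0.5 mg/kg) and 1 (0.1 mg/kg). With 1 mouse left out they were 1876 to 2556, 59 to 115 and 0 in males at 5, 0.5 and 0.1 mg/kg, 562 to 805, 16 to 27 and 0 in females, 80 to 217 for the difference between the sexes and 342 to 513 between vehicle groups; males at 0.5 mg/kg had 59 without their replicate 4 and 76 without vehicle male replicate 2, and the difference between the sexes had 217 and 205 without replicates 4 and 2 of the males at 5 mg/kg. With DESeq2 size factors in the edgeR fit, males at 5 mg/kg had 981 probes raised and 1356 lowered, against 782 and 1577 with TMM. The cause of these changes was not tested. No paired analysis was possible because animal numbers do not pair mice across groups. Depth limits the level of Slc46a3 in males at 5 mg/kg, where 3 counts were 0.331 to 1.13 CPM.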
